A study of Mus musculus with 7 samples.

Results

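The 9 genes described here encode the channels and pumps that couple glucose metabolism to calcium entry in the pancreatic beta cell. They are Kcnj11 and Abcc8 (the ATP-sensitive potassium channel), Cacna1c, Cacna1d, Cacna1a and Cacnb2 (voltage-gated calcium channels), Trpm5 (a cation channel), and Atp2a2 and Atp2a3 (calcium pumps of the endoplasmic reticulum). They were picked by symbol from the 55487 genes of the count table for their known roles. No measured value enters that rule, but the set was drawn up with earlier results of these data known. RNA was sequenced from isolated islets of Traf6 KO mice (3 libraries) and of Control mice (4 libraries). All mice had a 60% high-fat diet for 15 weeks before isolation, and all islets rested for 24 hours in culture medium. The series describes the deletion of Traf6, an adaptor and E3 ubiquitin ligase of innate immune receptors, as specific to the beta cell. The driver of the deletion, the alleles that the Control mice carry, and the age and sex of the mice were not stated in the labels. Whole islets also hold alpha, delta, vascular and immune cells, in which a deletion restricted to beta cells would leave Traf6 intact.

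As background, glucose metabolism raises ATP in the beta cell, which closes the ATP-sensitive potassium (KATP) channel and depolarizes the membrane. Voltage-gated calcium channels then open, and the calcium that enters triggers the fusion of insulin granules. Pumps of the SERCA family return calcium to the endoplasmic reticulum, where it also supports the folding of proinsulin. The comparison asks whether the transcripts of this machinery differed when Traf6 was deleted under a high-fat diet.

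Several libraries stood apart before any member was compared. Library totals were 22104256 to 25091055 counts in Traf6 KO and 22161097 to 29917292 counts in Control. CPM, the usual depth-normalised count, was taken on library totals corrected by edgeR's TMM factor. Traf6 stood at 14.7, 15.3 and 14.5 CPM in Traf6 KO 1 to 3, against 17.9, 25.5 and 22.1 CPM in Control 1 to 3, with the library labelled Control 4 at 12.6 CPM. That last library lay below each Traf6 KO library and goes against its label, and the whole-gene count does not isolate a deleted exon. Traf6 thus had a fitted log2 change of -0.40 ± 0.22 (SE; adjusted p = 0.416 from edgeR). The 30 acinar marker genes, which mark the exocrine pancreas, took 55.2%, 42.3% and 1.597% of counts in Traf6 KO 1 to 3, against 19.9%, 0.479% and 0.456% in Control 1 to 3, with the library labelled Control 4 at 3.18%. The 12 macrophage and myeloid markers took 0.0672% in that library, against 0.0107% to 0.0245% in the others. Ddx3y, a gene of the Y chromosome, had 0 CPM in Traf6 KO 3 and 34.4 to 51.1 CPM in the other libraries, a gene looked up after the values were seen. Endocrine transcripts were abundant in every library. Ins2, the main insulin gene of the mouse, had 86608, 73802 and 65047 CPM in Traf6 KO, against 124780, 101830, 122310 and 119190 CPM in Control.

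None of the 9 genes passed the test between genotypes. With edgeR's quasi-likelihood test, 0 of the 9 had an adjusted p under 0.05, as did 0 (0%) of the 16203 genes tested. At an unadjusted p under 0.05 there was 1 of the 9, Kcnj11, lower in Traf6 KO, where 7.17% of all genes tested were lower and 8.81% higher by that measure. Kcnj11 was also the only one of the 9 in which all Traf6 KO libraries were under all Controls, which held for 8.68% of all genes tested. No member had every Traf6 KO library above every Control, against 5.58% of all genes. The log2 fold change was below 0 in 6 of the 9, with a median of -0.18, while 49.3% of all genes tested lay below 0 and their median was 0.0051. All 9 passed the filter on low counts. The smallest count was 246, for Cacnb2 in Traf6 KO 1, with an exact Poisson 95% interval of 216 to 279 that covers counting error only.

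**Figure D1:**
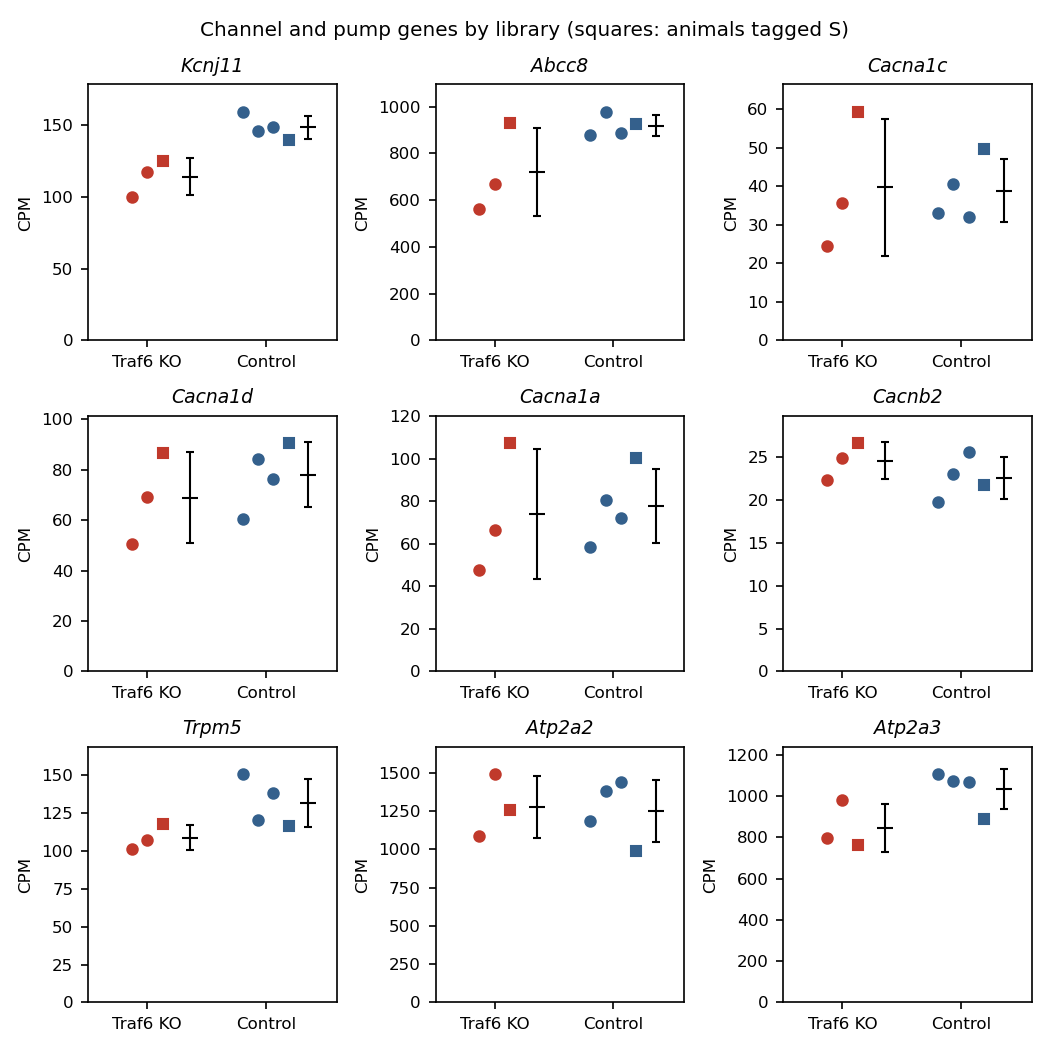
Level of each of the 9 genes in CPM (vertical axes from 0) in 3 Traf6 KO and 4 Control libraries. Points are libraries (squares carry animal tag S, circles Q or R), and bars are the mean ± SD. In Kcnj11 the Traf6 KO libraries lie at 99.6 to 125 CPM, below all Controls at 139 to 159 CPM, and in the other 8 genes the groups overlap.

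The 9 transcripts spanned a wide range of levels, and their group means fell in the same order in both genotypes. Per kilobase of annotated exon, Atp2a2 averaged 210 CPM per kb in Traf6 KO and 206 ± 33.7 in Control, and Atp2a3 averaged 160 in Traf6 KO and 196 ± 18.4 in Control (SD, n = 3 Traf6 KO and n = 4 Control for each level here). The ranges of these 2 pumps overlapped in Control, and Atp2a2 was the higher in all 3 Traf6 KO libraries. Abcc8 followed at 89.2 CPM per kb in Traf6 KO and 113 ± 5.54 in Control. Kcnj11 stood at 31.0 CPM per kb in Traf6 KO and 40.3 ± 2.21 in Control, and Trpm5 at 17.0 in Traf6 KO and 20.6 ± 2.51 in Control. Abcc8, Kcnj11 and Trpm5 each had a Control range apart from its neighbours in that order. Cacna1a, at 6.47 CPM per kb in Traf6 KO and 6.83 ± 1.53 in Control, overlapped Cacna1d, at 5.46 in Traf6 KO and 6.18 ± 1.03 in Control. Cacna1c, at 1.88 CPM per kb in Traf6 KO and 1.83 ± 0.388 in Control, overlapped Cacnb2, at 1.86 in Traf6 KO and 1.70 ± 0.187 in Control. Cacna1c was the higher of these 2 in 1 of 3 Traf6 KO libraries and in 4 of all 7 libraries. The exon length counts every annotated isoform, so it is long, 21.2 kb for Cacna1c, where a gene has many, and the level per kb of such a gene is low.

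The pore of the KATP channel is Kir6.2, the product of Kcnj11, and its regulatory subunit is the sulfonylurea receptor SUR1, the product of Abcc8. Both genes lie on the minus strand of chromosome 7 in GRCm38, Abcc8 from 46104523 to 46180033 and Kcnj11 from 46093953 to 46100764, with 3758 bp between them. Kcnj11 had 99.6, 117 and 125 CPM in Traf6 KO 1 to 3, against 159, 146 and 149 CPM in Control 1 to 3, with the library labelled Control 4 at 139 CPM. The groups did not overlap, and the lowest level stood in Traf6 KO 1. The mean was 114 ± 12.98 CPM in Traf6 KO (SD, n = 3) and 148 ± 8.14 CPM in Control (SD, n = 4), 76.8% of Control by the fitted fold change. In edgeR the log2 fold change was -0.38 ± 0.11 (SE; adjusted p = 0.219). Permuting the labels of log2(CPM + 1) gave an exact two-sided p = 0.0571, the smallest that 3 against 4 libraries allow. In bulk islets, fewer cells of a type and less RNA per cell cannot be told apart. Without the library labelled Control 4 the log2 fold change of Kcnj11 was -0.41 (adjusted p = 0.345 from edgeR). Without the 3 acinar-rich libraries it was -0.22 (adjusted p = 0.477 from edgeR). That fit holds Traf6 KO 3 alone against 3 Controls, takes its spread from the Controls and assumes that the lone library varies as they do. Other tools placed Kcnj11 past the threshold, the DESeq2 Wald test at -0.36 (adjusted p = 0.0399) and limma-voom with sample quality weights at -0.37 (adjusted p = 0.0444), which called 1.54% and 2.33% of the genes they tested lower, and 3.01% and 4.13% higher. No member was called with the acinar level as a covariate (0.0185% of all genes higher), without Traf6 KO 3 (0.804% lower and 3.43% higher) or without the 3 acinar-rich libraries (0.0336% lower and 0.342% higher).

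Abcc8 had 563 and 669 CPM in Traf6 KO 1 and 2 and 931 CPM in Traf6 KO 3, against 881, 978 and 887 CPM in Control 1 to 3, with the library labelled Control 4 at 927 CPM. The 2 low libraries are those rich in acinar transcripts, and Traf6 KO 3 lay among the Controls. The log2 fold change was -0.35 ± 0.21 (SE; adjusted p = 0.438 from edgeR). Without Traf6 KO 3 it was -0.58 (adjusted p = 0.110 from edgeR). Leaving out the 3 acinar-rich libraries gave -0.0074, with Traf6 KO 3 alone in its group. The ratio of Abcc8 to Kcnj11 counts within a library, which does not depend on scaling, was 5.65, 5.71 and 7.45 in Traf6 KO 1 to 3, against 5.54, 6.70 and 5.96 in Control 1 to 3, with the library labelled Control 4 at 6.65. The mean log2 ratio was 2.64 ± 0.23 in Traf6 KO (SD, n = 3) and 2.63 ± 0.13 in Control (SD, n = 4), a difference of 0.0066 (exact permutation p = 0.9714, two-sided). Its direction turned in several subsets of the libraries, with -0.12 without Traf6 KO 3.

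The pore-forming subunits of the voltage-gated calcium channels are the L-type channels Cav1.2 (Cacna1c) and Cav1.3 (Cacna1d) and the P/Q-type channel Cav2.1 (Cacna1a). In GRCm38, Cacna1c lies on chromosome 6 from 118587240 to 119196418 and Cacna1d on chromosome 14 from 30039939 to 30491455, both on the minus strand, and Cacna1a on the plus strand of chromosome 8 from 84388440 to 84640246. Cacna1c had 24.4, 35.5 and 59.2 CPM in Traf6 KO 1 to 3, against 33.0, 40.5 and 32.0 CPM in Control 1 to 3, with the library labelled Control 4 at 49.7 CPM. Cacna1a had 47.9, 66.4 and 108 CPM in Traf6 KO 1 to 3, against 58.3, 80.9 and 72.3 CPM in Control 1 to 3, with the library labelled Control 4 at 100.2 CPM. In both genes the highest values stood in Traf6 KO 3 and the library labelled Control 4, 1 of each genotype, which are the 2 libraries with the animal tag S. Cacna1d had 50.7, 69.4 and 86.7 CPM in Traf6 KO 1 to 3, against 60.6, 84.3 and 76.5 CPM in Control 1 to 3, with the library labelled Control 4 at 90.6 CPM. The 2 S-tagged libraries were again the highest, and Traf6 KO 1 and Control 1 the lowest.

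The log2 fold change was 0.040 ± 0.29 for Cacna1c, -0.18 ± 0.20 for Cacna1d and -0.074 ± 0.28 for Cacna1a (SE; adjusted p = 0.960, 0.698 and 0.921 from edgeR). The spread within Traf6 KO was wide, with a coefficient of variation of 44.7% for Cacna1c and 41.3% for Cacna1a, against 21.2% and 22.5% in Control. Restricted to tags Q and R, the fitted values were -0.22 for Cacna1c, -0.30 for Cacna1d and -0.30 for Cacna1a (adjusted p = 0.544, 0.424 and 0.418 from edgeR). Both Traf6 KO libraries of that subset are acinar-rich, while among its Controls only Control 1 is. The tag series and the acinar share thus cannot be told apart in that fit. Tag S has 1 library per genotype, which allows no test. The direction of Cacna1c, Cacna1d and Cacna1a depended on which libraries entered. Without Traf6 KO 1 the values were 0.29, 0.0076 and 0.16, and without Traf6 KO 3 they were -0.37, -0.38 and -0.45. The 8 neural and Schwann markers took 0.00359%, 0.00501% and 0.0174% of counts in Traf6 KO 1 to 3, against 0.00651%, 0.0129%, 0.0103% and 0.00914% in the libraries labelled Control 1 to 4, with 1 marker at 0 in Traf6 KO 1. The 7 muscle markers took 0.00117%, 0.00150% and 0.00337% in Traf6 KO 1 to 3, against 0.00161% to 0.00301% in Control. In Control 2 there were 2 of them at 0, and the library labelled Control 4 had 1 at 0. Their part in these levels was not tested.

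Cacna1d has a pair of annotated start sites on the minus strand of chromosome 14, and both RefSeq windows (GRCm38.p6, from 250 bases before to 50 after the start) are shown because they differ in make-up while the table holds a single count for the gene. Capitals mark matches, on either strand, to any of 5 letter patterns, which may overlap. The E-box was searched as CANNTG and the homeodomain core as TAATNG. The GC box was searched as GGGCGG and the TATA element as TATAAA. The cyclic AMP response element was searched as TGACGTCA.
Cacna1d, first start site, chr14:30491107-30491406: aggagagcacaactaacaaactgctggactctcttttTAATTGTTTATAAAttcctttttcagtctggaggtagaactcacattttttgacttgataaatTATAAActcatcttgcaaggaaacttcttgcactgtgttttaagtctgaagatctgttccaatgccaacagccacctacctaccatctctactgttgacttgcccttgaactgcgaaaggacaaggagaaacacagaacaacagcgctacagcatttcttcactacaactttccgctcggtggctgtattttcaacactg
Cacna1d, second start site, chr14:30353437-30353736: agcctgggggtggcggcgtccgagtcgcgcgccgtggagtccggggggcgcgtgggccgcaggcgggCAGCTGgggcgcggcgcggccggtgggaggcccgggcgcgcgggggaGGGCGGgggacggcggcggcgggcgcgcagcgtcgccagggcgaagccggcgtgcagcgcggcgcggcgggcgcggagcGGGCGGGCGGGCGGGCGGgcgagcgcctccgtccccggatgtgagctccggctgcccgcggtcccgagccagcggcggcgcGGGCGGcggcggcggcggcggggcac
The first window is 40.3% G and C, with 3 matches to TATAAA, 2 of which overlap as reads of opposite strands, and none to GGGCGG. The second window is 87.3% G and C, with 6 matches to GGGCGG, some of them overlapping, and none to TATAAA. Of 32851 windows of this length in the table, 13.6% hold TATAAA and 35.7% hold GGGCGG. Gene-level counts do not show which start site was used in any library. Exons of Cacna1d share 589 bp with Chdh on the opposite strand, a gene with 637 counts in all libraries together against 14462 for Cacna1d.

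Cacnb2 encodes a cytoplasmic beta subunit that brings the pore to the membrane and shapes its gating, and lies on the plus strand of chromosome 2 from 14603088 to 14987908. It had 22.3, 24.8 and 26.6 CPM in Traf6 KO 1 to 3, against 19.7, 23.02 and 25.6 CPM in Control 1 to 3, with the library labelled Control 4 at 21.7 CPM. The groups overlapped, and the highest value stood in Traf6 KO 3. In edgeR the log2 fold change was 0.13 ± 0.12 (SE; adjusted p = 0.625), the highest of the 9. The ratio of Cacnb2 to Cacna1d counts was 0.439, 0.358 and 0.307 in Traf6 KO 1 to 3, against 0.325, 0.273, 0.335 and 0.240 in the libraries labelled Control 1 to 4. Its mean log2 value differed by 0.33 (exact permutation p = 0.1714, two-sided). The ratio of Cacna1d to Cacna1c was 2.07, 1.95 and 1.46 in Traf6 KO, against 1.84, 2.08, 2.39 and 1.82 in Control, a log2 difference of -0.16 (exact permutation p = 0.4571, two-sided).

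Trpm5 encodes a calcium-activated, sodium-permeable channel that adds to depolarization of the beta cell and is also known from taste cells. The gene lies on the minus strand of chromosome 7 from 143069153 to 143094642. It had 101.5 and 107 CPM in Traf6 KO 1 and 2 and 118 CPM in Traf6 KO 3, against 151, 121 and 139 CPM in Control 1 to 3, with the library labelled Control 4 at 116 CPM. The groups overlapped only through Traf6 KO 3 and the library labelled Control 4. The log2 fold change was -0.27 ± 0.13 (SE; adjusted p = 0.337 from edgeR), and -0.33 without the library labelled Control 4 (adjusted p = 0.381 from edgeR). Its ratio to Kcnj11 was 1.02, 0.916 and 0.944 in Traf6 KO, against 0.949, 0.827, 0.932 and 0.834 in Control, a log2 difference of 0.12 (exact permutation p = 0.2857, two-sided). Of the 36 pairs among the 9 genes, Trpm5 and Kcnj11 had the steadiest ratio, with an SD of 0.11 on the log2 scale over 7 libraries. Exons of Trpm5 share 220 bp with Tssc4 on the opposite strand, and Tssc4 had 16482 counts in all libraries against 23431 for Trpm5. Without a stated strand setting, reads from that overlap cannot be assigned.

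Atp2a2 encodes SERCA2, the pump found in most cells, and Atp2a3 encodes SERCA3, which in islets is known mainly from beta cells. Atp2a2 lies on the minus strand of chromosome 5 from 122453513 to 122502225, and Atp2a3 on the plus strand of chromosome 11 from 72961169 to 72993044. Atp2a3 had 798, 978 and 762 CPM in Traf6 KO 1 to 3, against 1107, 1071 and 1068 CPM in Control 1 to 3, with the library labelled Control 4 at 890 CPM. Every Traf6 KO library lay below Control 1 to 3, and the library labelled Control 4 lay between Traf6 KO 1 and 2. In edgeR the log2 fold change was -0.29 ± 0.18 (SE; adjusted p = 0.463), and -0.35 without the library labelled Control 4 (adjusted p = 0.458 from edgeR). Unlike Abcc8, Atp2a3 was lowest in Traf6 KO 3, where acinar transcripts were few. Atp2a2 had 1086, 1493 and 1254 CPM in Traf6 KO 1 to 3, against 1187, 1383 and 1441 CPM in Control 1 to 3, with the library labelled Control 4 at 989 CPM. Its groups overlapped throughout, with a log2 fold change of 0.031 ± 0.22 (SE; adjusted p = 0.958 from edgeR).

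Of the 5 ratios tested, only that of Atp2a3 to Atp2a2 counts separated the genotypes. It was 0.735, 0.655 and 0.608 in Traf6 KO 1 to 3, against 0.932, 0.774 and 0.741 in Control 1 to 3, with the library labelled Control 4 at 0.900. No Traf6 KO ratio reached a Control ratio, by a narrow margin between Traf6 KO 1 and Control 3. The mean log2 ratio was -0.59 ± 0.14 in Traf6 KO (SD, n = 3) and -0.26 ± 0.16 in Control (SD, n = 4), a difference of -0.33 (exact permutation p = 0.0571, two-sided), the smallest possible here. After Benjamini-Hochberg adjustment over the 5 ratios tested this was 0.2855. How common such a separation is among all pairs of genes was not counted. The ratio does not depend on scaling but can depend on the mix of cells, whose part was not tested. The difference was -0.23 among the Q- and R-tagged libraries and -0.29 without the library labelled Control 4. In the Q- and R-tagged subset both Traf6 KO libraries are acinar-rich.

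The promoter windows of Trpm5 and Atp2a3 are shown because both genes had a negative fitted fold change, as Kcnj11 did. Neither gene was called, and the groups of both overlapped. Capitals are the same as above.
Trpm5, minus strand, chr7:143094593-143094892: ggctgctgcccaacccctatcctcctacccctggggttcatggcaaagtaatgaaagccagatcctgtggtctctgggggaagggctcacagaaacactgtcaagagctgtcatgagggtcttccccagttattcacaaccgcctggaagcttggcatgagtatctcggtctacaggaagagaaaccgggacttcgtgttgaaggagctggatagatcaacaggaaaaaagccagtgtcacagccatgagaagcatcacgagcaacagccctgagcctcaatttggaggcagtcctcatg
Atp2a3, plus strand, chr11:72960919-72961218: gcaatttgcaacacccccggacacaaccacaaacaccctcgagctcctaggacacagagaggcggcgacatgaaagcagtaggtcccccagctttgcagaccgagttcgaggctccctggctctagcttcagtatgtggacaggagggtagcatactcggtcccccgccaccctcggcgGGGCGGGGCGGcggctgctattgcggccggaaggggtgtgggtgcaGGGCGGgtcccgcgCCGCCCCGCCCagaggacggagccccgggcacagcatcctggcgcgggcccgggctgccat
The Trpm5 window is 53.0% G and C and held none of the 5 searched letter patterns, although 72.3% of all windows hold CANNTG. The Atp2a3 window is 68.3% G and C, held 5 matches to GGGCGG, some of them overlapping, and none to the other patterns. Windows were present for 5 of the 9 genes, Cacna1c, Cacna1d, Cacnb2, Trpm5 and Atp2a3.

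Because acinar RNA differed so widely, the 9 genes were also set against the geometric mean of 14 pan-endocrine genes (granins, prohormone processing enzymes and islet transcription factors) in the same library. That mean stood at 591, 677 and 754 CPM in Traf6 KO 1 to 3, against 818.9, 770 and 806 CPM in Control 1 to 3, with the library labelled Control 4 at 732 CPM. It was therefore itself lowest in both acinar-rich Traf6 KO libraries. The fitted fold change was negative for 11 of the 14 (median -0.21) and for 17 of 21 beta-cell identity markers (median -0.18), and none of these was called. Kcnj11 stood at 16.8%, 17.3% and 16.6% of this mean in Traf6 KO 1 to 3, against 19.4%, 19.0% and 18.5% in Control 1 to 3, with the library labelled Control 4 at 19.1%. All Traf6 KO libraries lay below all Controls, and each group was tight, at 16.9 ± 0.371% in Traf6 KO (SD, n = 3) and 19.0 ± 0.394% in Control (SD, n = 4). The log2 difference was -0.17 (exact permutation p = 0.0571, two-sided), the smallest possible, and the count-based fit on this scale gave -0.17 ± 0.11 (SE; adjusted p = 0.423 from edgeR). Relative to 19 beta-cell identity markers (without Ins1 and Ins2) in place of the pan-endocrine genes, the difference was -0.22 and the groups of Kcnj11 overlapped (exact permutation p = 0.1714, two-sided). The separation of Kcnj11 thus depended on the endocrine genes chosen. Leaving out 1 library at a time on the pan-endocrine scale gave -0.18 to -0.15. On this scale 1.52% of all genes tested had all Traf6 KO libraries under all Controls.

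Cacnb2 lay on the other side. It stood at 3.76%, 3.67% and 3.53% of the endocrine mean in Traf6 KO 1 to 3, against 2.41%, 2.99% and 3.18% in Control 1 to 3, with the library labelled Control 4 at 2.97%. The 3 Traf6 KO values exceeded all 4 Control values, as did 14.3% of all genes tested on this scale, so the pattern was common. The log2 difference was 0.35 (exact permutation p = 0.0571, two-sided), the smallest possible, and edgeR gave 0.34 ± 0.13 on this scale (SE, adjusted p = 0.191). The median log2 fold change of all genes was 0.22 on this scale, against 0.0051 with TMM factors. Relative to the beta-cell identity markers the Cacnb2 difference was 0.29 and its groups overlapped (exact permutation p = 0.1143, two-sided). The groups of the other 7 genes overlapped relative to the pan-endocrine mean. Relative to the beta-cell identity markers, however, each Traf6 KO value of Abcc8 was under each Control value, with a difference of -0.21 (exact permutation p = 0.0571, two-sided). The share of all genes tested with that pattern relative to the beta-cell identity markers was not counted, so how common it was is not known. Which of the 9 genes separated the genotypes therefore changed with the marker list. On the pan-endocrine scale Abcc8 was at 106 ± 15.4% in Traf6 KO and 118 ± 10.5% in Control, Trpm5 at 16.2 ± 0.825% in Traf6 KO and 16.8 ± 1.27% in Control, Atp2a3 at 127 ± 22.9% in Traf6 KO and 132 ± 7.47% in Control, and Atp2a2 at 190 ± 27.7% in Traf6 KO and 160 ± 22.9% in Control (SD, n = 3 Traf6 KO and 4 Control). The median log2 fold change of the 9 genes was 0.0081 on that scale, with 4 of 9 below 0, and 6 of 9 were below 0 with TMM factors.

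**Figure D2:**
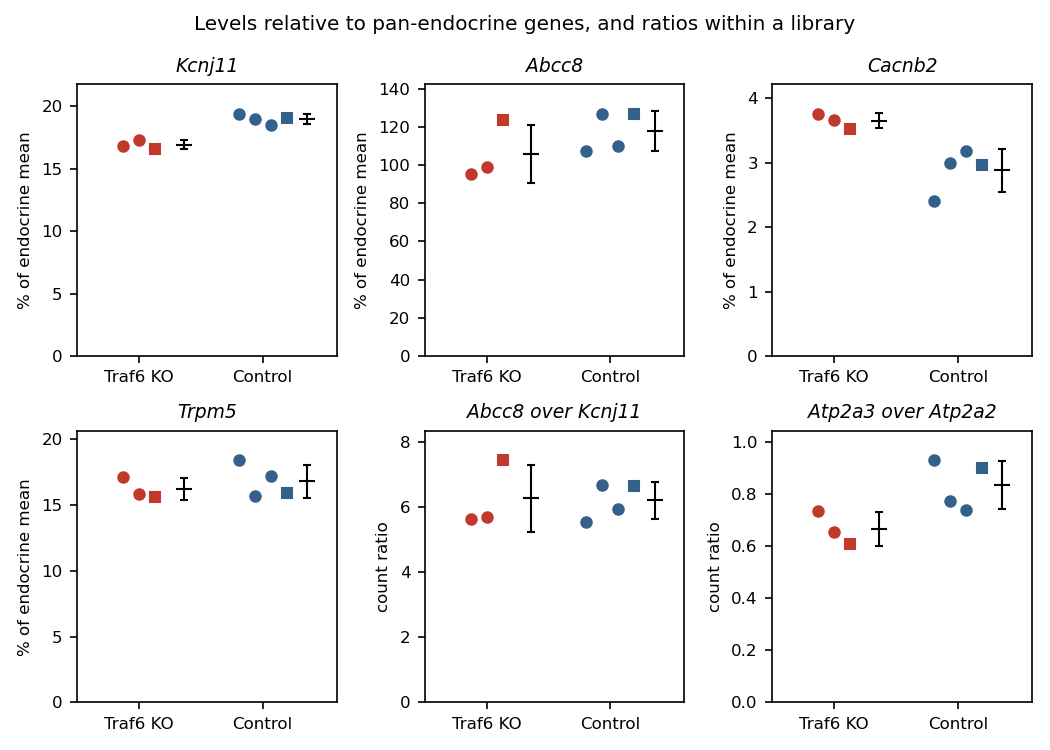
Level as a percent of the geometric mean of 14 pan-endocrine genes (Kcnj11, Abcc8, Cacnb2 and Trpm5) and count ratio within a library (last 2 panels), for 3 Traf6 KO and 4 Control libraries. Points are libraries (squares carry tag S), bars are mean ± SD and axes start at 0. Kcnj11 lies at 16.6% to 17.3% in Traf6 KO and 18.5% to 19.4% in Control, and the ratio of Atp2a3 to Atp2a2 at 0.608 to 0.735 in Traf6 KO and 0.741 to 0.932 in Control.

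Across libraries the 9 genes did not move as a block. In Traf6 KO 1, the library with the largest acinar share, all 9 were below the Control mean, with a median of -0.57 on the log2 scale, and 6 of the 9 had their lowest value there. In Traf6 KO 2 there were 7 of 9 below, with a median of -0.15, and in Traf6 KO 3 there were 3 of 9, with a median of 0.022. Control 1, with an acinar share of 19.9%, had 6 of 9 below and a median of -0.059. It held the highest values of Kcnj11, Trpm5 and Atp2a3 and the lowest of Cacnb2. Cacna1c, Cacna1a and Cacna1d were highest in both S-tagged libraries. The acinar-rich libraries, Traf6 KO 1, Traf6 KO 2 and Control 1, carry consecutive animal tags within the Q series. Their acinar share and that run of tags cannot be told apart. The part of acinar RNA, of the tag series and of the library without Ddx3y in these patterns was not tested.

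**Figure D3:**
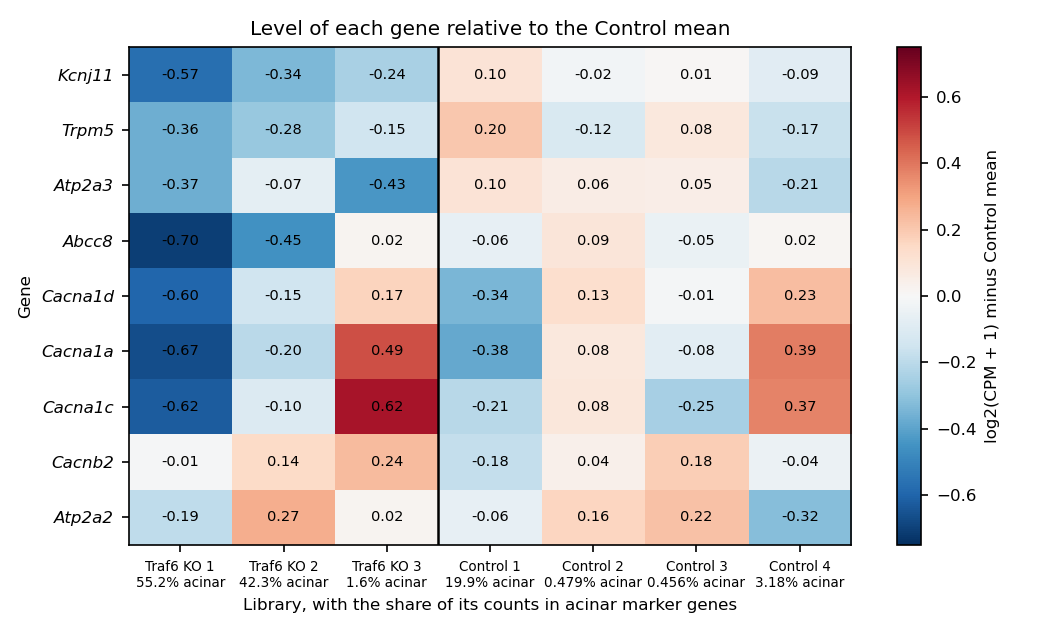
Log2(CPM + 1) of each gene (rows) in each library (columns, Traf6 KO left of the line) minus the Control mean, with the acinar share of counts under each library. Blue is below and red above the Control mean. Traf6 KO 1 is below 0 in all 9 genes, and Kcnj11, Trpm5 and Atp2a3 are below 0 in all 3 Traf6 KO libraries.

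With the acinar level of each library as a covariate, the log2 fold change was -0.34 ± 0.13 for Kcnj11, -0.27 ± 0.15 for Trpm5 and -0.35 ± 0.17 for Atp2a3 (SE; adjusted p = 0.280, 0.404 and 0.364 from edgeR). These were close to the values without the covariate. Abcc8 was at -0.16 ± 0.16 in that fit, Cacna1d at 0.092 ± 0.17, Cacna1a at 0.26 ± 0.22 and Cacna1c at 0.31 ± 0.25 (SE; adjusted p from 0.582 to 0.823 in edgeR). Cacnb2 was at 0.28 ± 0.12 and Atp2a2 at 0.13 ± 0.21 (SE; adjusted p = 0.315 and 0.804 from edgeR).

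**Figure D4:**
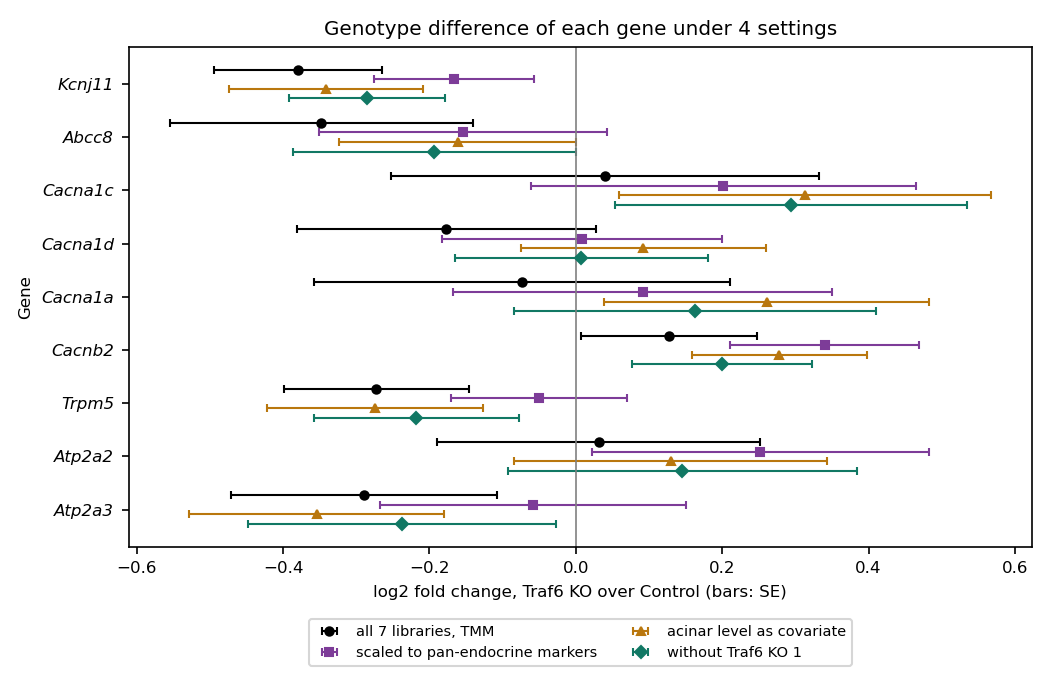
Log2 fold change of Traf6 KO over Control (horizontal axis, bars are SE) for each of the 9 genes in edgeR fits of all 7 libraries, scaled to pan-endocrine genes, adjusted for the acinar level, and without Traf6 KO 1. Kcnj11, Abcc8, Trpm5 and Atp2a3 lie below 0 and Cacnb2 above 0 in all 4 fits, while Cacna1d and Cacna1a change side.

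Other channels and pumps of the same circuit were read from 9 lists with 110 genes, of which 96 were tested. None of these 96 passed edgeR's adjusted threshold, and 14 had an unadjusted p under 0.05, where 16% of all genes tested did. There were 63 above 0 and 33 below, with a median of 0.072. All Traf6 KO libraries were under all Controls in 7 of the 96 and above in 4, against 8.68% and 5.58% of all genes.

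Among the other calcium channel subunits, 14 tested with a median of 0.054, Cacnb3, the beta subunit paralog of Cacnb2, had 49.5, 45.5 and 53.5 CPM in Traf6 KO, against 67.9, 74.7, 57.6 and 63.5 CPM in Control. Its groups did not overlap, with a log2 fold change of -0.41 ± 0.12 (SE; adjusted p = 0.205 from edgeR), opposite in sign to Cacnb2. Cacng4, an auxiliary gamma subunit, was at -0.47 ± 0.20 and Cacna1e, the R-type pore, at 1.49 ± 0.72 (adjusted p = 0.308 and 0.353 from edgeR). The KATP paralogs Abcc9 and Kcnj8, known from vascular muscle, stayed below 7 CPM in each library. Abcc9 had 3.35, 3.07 and 6.77 CPM in Traf6 KO, against 2.52, 2.87, 2.55 and 3.88 CPM in Control (log2 fold change 0.58 ± 0.34, adjusted p = 0.421 from edgeR).

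Of 24 potassium channels tested, with a median of 0.14, Kcnk16 (the islet background channel TALK-1) had 336, 336 and 350 CPM in Traf6 KO, against 449, 426, 474 and 369 CPM in Control, without overlap (log2 fold change -0.33 ± 0.14, adjusted p = 0.295 from edgeR). Kcnd3, a voltage-gated potassium channel, had 4.43, 4.201 and 1.62 CPM in Traf6 KO 1 to 3, against 1.68, 0.390, 0.322 and 0.0706 CPM in the libraries labelled Control 1 to 4 (log2 fold change 2.46 ± 0.85, adjusted p = 0.246 from edgeR). Its groups overlapped through Traf6 KO 3 and Control 1, whose acinar shares differ widely. Kcnq1, another voltage-gated potassium channel, had 29.6, 22.7 and 1.46 CPM in Traf6 KO 1 to 3, against 7.42, 1.70, 1.32 and 3.60 CPM in the libraries labelled Control 1 to 4 (log2 fold change 2.34 ± 0.92, adjusted p = 0.282 from edgeR). Ano1, a calcium-activated chloride channel, had 28.0, 27.8 and 4.89 CPM in Traf6 KO, against 6.69, 2.90, 4.24 and 3.81 CPM in Control (2.19 ± 0.56, adjusted p = 0.201 from edgeR). Atp2c2, a calcium pump of the secretory pathway, had 13.9, 7.16 and 0.259 CPM in Traf6 KO, against 1.79, 0.279, 0.234 and 0.494 CPM in Control (3.34 ± 1.15, adjusted p = 0.246 from edgeR). In each of Kcnq1, Ano1 and Atp2c2 the high values stood in Traf6 KO 1, Traf6 KO 2 and Control 1, the acinar-rich libraries.

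Outside the voltage-gated channels, 2 calcium entry genes lay higher in each Traf6 KO library than in any Control. They are among the 4 of 96 listed genes with that pattern, which 5.58% of all genes tested also had. Trpm7, a channel with a kinase domain, had 29.7, 32.7 and 31.4 CPM in Traf6 KO, against 19.9, 22.8, 22.7 and 24.4 CPM in Control (log2 fold change 0.48 ± 0.10, adjusted p = 0.176 from edgeR). Orai2, a pore of store-operated calcium entry, had 38.3, 30.5 and 18.7 CPM in Traf6 KO 1 to 3, against 16.5, 13.6, 14.7 and 12.8 CPM in Control (1.01 ± 0.23, adjusted p = 0.183 from edgeR). Orai2 stood highest in Traf6 KO 1 and 2, the libraries with the largest acinar shares, and Trpm7 was lowest in Control 1, the acinar-rich Control. Of the other TRP channels 9 were tested, with a median of 0.28, and of the calcium release and store-operated entry genes 10, with a median of 0.13. Hcn2, a channel activated by hyperpolarization, had 35.9, 33.8 and 34.3 CPM in Traf6 KO, against 52.5, 47.6, 42.7 and 40.3 CPM in Control (-0.40 ± 0.11, adjusted p = 0.205 from edgeR), and Scn3a, a sodium channel pore, was at 0.39 ± 0.16 (adjusted p = 0.290 from edgeR).

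**Figure D5:**
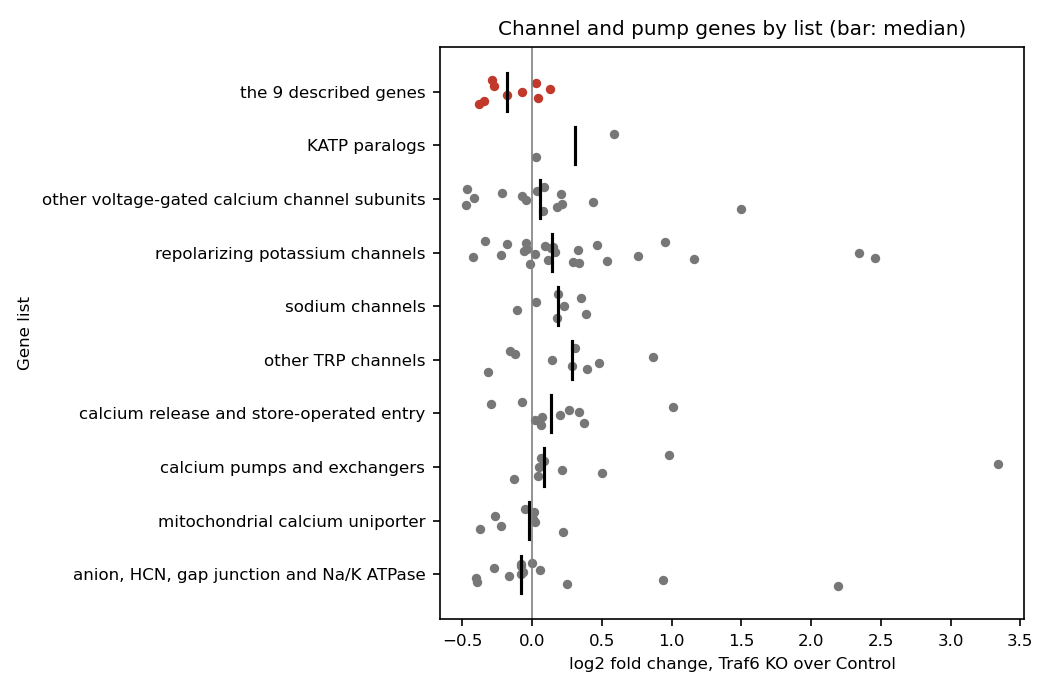
Log2 fold change of Traf6 KO over Control (horizontal axis) of each tested gene in the 9 channel and pump lists and of the 9 described genes (top row, red), with the median of each row as a bar. The 9 described genes lie between -0.38 and 0.13, and the furthest values are Atp2c2 at 3.34 and Kcnd3 at 2.46.

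The gene with the profile closest to each member was found over the 7 libraries, as the smallest root mean square difference of centred log2(CPM + 1), leaving out predicted genes, clone-based genes and pseudogenes. For Kcnj11 it was Cdk5r2, at 0.040 against a median of 0.30 over 16202 other genes. Cdk5r2, which encodes an activator of the kinase CDK5, had 36.2, 42.0 and 45.0 CPM in Traf6 KO 1 to 3, against 56.4, 53.7, 49.9 and 49.6 CPM in Control. For Trpm5 it was Klhl32 at 0.056, for Abcc8 Irak1bp1 at 0.048, and for Atp2a3 the orphan receptor gene Gpr27 at 0.051. For Cacna1a it was the synaptic scaffold gene Shank3 at 0.055, for Cacna1c Trerf1 at 0.067, for Cacna1d Zmym6 at 0.051, for Cacnb2 the splicing regulator gene Mbnl1 at 0.045 and for Atp2a2 Zfp879 at 0.071. Zfp879 had only 0.724 to 1.78 CPM, near the pseudocount of 1, so its profile is flattened and close to counting noise. Among members, Cacna1a ranked 15 of 16202 for Cacna1c and Kcnj11 ranked 71 for Trpm5. For Abcc8 the nearest member was Kcnj11, its partner in the KATP channel, at rank 444.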

How the data were processed

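Whole-number counts per gene were deposited by the authors, not normalized, in 1 table with 7 libraries. The submitters' processing notes list GRCm38 as build and FastQC, RSEM 1.3.1 and STAR 2.6.1b as tools, without role or order, so counts may be rounded estimates that divide reads between similar genes. The annotation and strand setting are not stated there. Per the labels, reads were paired, 151 bp each. Groups came from the genotype in the labels and columns from the library descriptions. All pairs of libraries differed by more than sampling noise (lowest chi-square per gene 21.8 over 21 pairs). The letter and number in each column name were read as an animal tag, which the titles and column names do not spell out. Whether libraries came from separate mice rests on these tags, and otherwise p-values cover only the spread among these samples, which may be technical.

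The counts were fitted by edgeR 4.0.16 under R 4.3.3, using its quasi-likelihood F test, TMM factors and genotype as the only term. Genes passed filterByExpr at a count of 10 and a total of 15, and p-values were adjusted over 16203 genes by Benjamini-Hochberg, at a threshold of 0.05. Each fold change is Traf6 KO over Control. Its SE was derived from the F statistic. The fit was tested on simulated data. Exact permutation tests over 35 splits used scipy 1.17.1 and a pseudocount of 1, two-sided. Exon lengths came from GENCODE M21, which matched 55227 of 55487 identifiers. Promoters came from RefSeq. Named besides the 9 genes were up to 3 genes with the smallest p in each channel list, with a mean CPM of at least 1, and the nearest profile of each member. Members and lists were chosen with earlier results of these data known. Alternatives used DESeq2 1.42.0, limma 3.58.1, other factors and filters, covariates and subsets of libraries. Some listed genes are not reported here.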

Additional observations from a re-analysis of the deposited data

How the results depend on the processing

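Over 21 alternative fits, Kcnj11, Abcc8, Trpm5 and Atp2a3 stayed below 0 and Cacnb2 above 0, with Kcnj11 between -0.48 and -0.17 (adjusted p from 0.0399 to 0.477). Some of these values lay near 0. Abcc8 was at -0.0074 without the 3 acinar-rich libraries. Scaled to pan-endocrine markers, Trpm5 was at -0.051 ± 0.12 and Atp2a3 at -0.058 ± 0.21 (SE). Cacnb2 was at 0.049 among Q- and R-tagged libraries. A member passed the threshold only in the DESeq2 Wald test (1, Kcnj11, with 704 of all genes) and in limma-voom with sample quality weights (1, Kcnj11, with 1046 of all genes). Of the 96 other channel genes, 3 passed by DESeq2 (Trpm7, Orai2 and Ano1), where 3.01% of all genes were called higher. With quality weights 5 of the 96 passed (these with Kcnd3 and Stim2), where 4.13% of all genes were called higher. Each of these channel genes was higher in Traf6 KO. Leaving out 1 library at a time gave 0 to 701 genes called, 0 to 4 channel genes and 0 members. The 701 and the 4 (Orai2, Kcnq1, Ano1 and Atp2c2) came without Traf6 KO 3, which leaves the acinar-rich libraries as Traf6 KO. That fit tested 98 of the channel genes, and called 3.43% of all genes higher and 0.804% lower. The count of genes called was 5 with the replicate block, 3 with the acinar covariate and 67 without the 3 acinar-rich libraries, where 1 Traf6 KO library is assumed to vary like the Controls.

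Same-numbered libraries had deviation correlations of 0.60, -0.18 and 0.45, and those of unlike number ran from -0.74 to 0.53. The library numbers follow the order of the sample records within each genotype, and the titles and column names hold no replicate number. The libraries also differ widely in acinar share, so these correlations cannot show whether the samples are paired. The replicate block placed Cacna1a at 0.0042 and Atp2a2 at -0.070 and called no member. Direction also turned for Cacna1d (0.0081) and Cacna1a (0.092) scaled to endocrine markers, Cacna1d (0.092) and Cacna1a (0.26) with the acinar covariate, Cacna1c with quality weights (-0.041) and the tag term (-0.082), and Atp2a2 with upper-quartile factors (-0.0082). Without the 3 acinar-rich libraries Cacna1d was at 0.041, Cacna1a at 0.34 and Atp2a2 at -0.030. Among Q- and R-tagged libraries, where both Traf6 KO libraries are acinar-rich, Cacna1c was at -0.22 and Atp2a2 at -0.053. In that subset the difference of mean log2 level was -0.066 for Atp2a2, and that of the log2 ratio of Abcc8 to Kcnj11 was -0.090. Relative to beta-cell identity markers Cacna1d was at -0.032.

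Leaving out 1 library, the log2 fold change ran from -0.37 to 0.29 for Cacna1c, from -0.38 to 0.0076 for Cacna1d, from -0.45 to 0.16 for Cacna1a and from -0.087 to 0.15 for Atp2a2. The difference of mean log2 level ran from -0.36 to 0.26, -0.37 to 0.0074, -0.43 to 0.14 and -0.084 to 0.15 for these 4 genes. Relative to endocrine markers it ran from -0.070 to 0.39 for Cacna1c, -0.12 to 0.14 for Cacna1d, -0.14 to 0.27 for Cacna1a and -0.18 to 0.082 for Atp2a3, and the log2 ratio of Abcc8 to Kcnj11 from -0.12 to 0.076. The cause of these turns was not tested. With 3 against 4 libraries, no exact test can go below 0.0571.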

Other observations

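Set among all listed channel and pump genes in Control islets per kilobase of exon, Atp2a2 and Atp2a3 ranked 1 and 2, followed by Kcnk16, the potassium channel TALK-1, at 181 ± 18.8 CPM per kb (SD, n = 4). Abcc8 ranked 5 at 113 ± 5.54 CPM per kb. Gjd2, which encodes the gap junction protein that links beta cells electrically, averaged 59.7 CPM per kb in Traf6 KO and 62.5 ± 0.341 in Control. Gjd2 was named after its values were seen.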
